A study of Homo sapiens with 6 samples.

Results

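Bromodomains are protein modules that bind acetylated lysine, above all on histone tails, and the genes described here encode proteins that read this mark on chromatin. They are BRWD1 and its relatives PHIP (also known as BRWD2) and BRWD3, and the genes BRD1, BRD2, BRD3, BRD7, BRD8 and BRD9. All probes that the platform annotation pairs with these 9 genes were taken, which gave 15 of the 47322 probes on the array. They belong to 8 of the 20046 genes with a probe, since no probe in the annotation used here was paired with BRD1, and BRD1 was not analysed here. BRWD1 was listed because it was among the largest falls in these same arrays, so its values and their errors are given as a description, with no p-value, and nothing is supported with them. The other genes were listed by family, with earlier results of these data known.

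T47D is an oestrogen receptor-positive luminal breast cancer cell line. One group received a miR-489 mimic, a synthetic stand-in for that microRNA, and the other a scramble siRNA as control, and RNA was taken after 72 h. Each group held 3 samples with 1 Illumina BeadChip each. Nothing in the labels says that replicates were separate cultures, so a p-value here measures only how these samples spread, which can be technical in origin. Arrays had 16452 to 17346 probes detected (detection p below 0.01), and the lowest detected intensity ran from 135 to 157. Of the luminal epithelial markers, 9 of 9 were detected on all 6 arrays. Of the markers of other cell types, 0 of 4 endothelial genes were detected on at least 3 arrays, and 1 gene each of the fibroblast, leukocyte and basal lists. Values below are log2 intensities after background correction and quantile normalization, and differences are mimic minus scramble. A probe is called at an adjusted p below 0.05 in limma, and rose, fell and changed are used only of calls.

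The microRNA arm named miR-489-3p in RefSeq (GRCh38.p14, chr7:93483947-93483968, minus strand) is shown because it is the annotated mature product of the gene whose mimic was used. Capitals mark the seed, bases 2 to 8. The labels do not give the sequence or arm of the mimic. Of 2545 mature human microRNAs in that table, 1 carries this seed, miR-489-3p itself.
hsa-miR-489-3p: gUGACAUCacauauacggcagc

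Of the 15 probes, 12 were measured, that is detected on at least 3 arrays whatever the group. The other 3 were below detection on all 6 arrays. Among the 12 measured probes 6 were called, against 33.9% of all 17104 measured probes. The called probes comprised 4 that were lower with the mimic (16.3% of all measured probes) and 2 that were higher (17.6%). In 9 of the 12 the arrays of the groups did not overlap, against 48.8% of all measured probes. These counts include 3 probes of BRWD1, which was chosen on this contrast, so nothing is read from these shares. Without BRWD1, 3 of 8 probes were called, 2 higher and 1 lower. The count of called probes among the 12 was 4 without scramble array 3, where calls over all measured probes fell from 5798 to 4217.

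BRWD1 encodes a large nuclear protein with WD40 repeats and tandem bromodomains, known from mouse lymphocytes as a regulator of chromatin accessibility at lineage genes. Its brightest probe, ILMN_1673518, annotated to transcript NM_001007246, read 9.59, 10.00 and 9.68 on the scramble arrays and 6.64, 6.87 and 6.87 on the mimic arrays. The groups were far apart, and the highest mimic array lay well below the lowest scramble array. The log2 difference was -2.97 ± 0.15 (SE, n = 3 per group), a 7.81-fold lower level with a 95% confidence interval of the log2 difference from -3.32 to -2.61. Before any correction the deposited intensities of this probe were 856, 1024 and 848 with the scramble and 222, 216 and 214 with the mimic. This difference was the 9th lowest of the 17104 measured probes. Its size differed with the processing and was -1.77 in the authors' processed values and -2.19 without background correction.

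The other BRWD1 probes gave smaller differences. ILMN_1805111, annotated to the same transcript, read 7.69, 7.68 and 7.58 with the scramble and 6.73, 6.98 and 6.76 with the mimic, a difference of -0.83 ± 0.13 (-0.35 in the authors' processed values). ILMN_1761915, on transcript NM_018963, read 6.90, 6.78 and 7.47 against 6.38, 6.41 and 5.92, a difference of -0.81 ± 0.22 (-0.27 in the authors' processed values). In both probes every mimic array was below every scramble array, although the uncorrected intensities of ILMN_1761915 overlapped, with 202 to 268 in the scramble group and 158 to 204 in the mimic group.

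ILMN_1801866, on transcript NM_033656, read 5.82, 6.14 and 5.93 with the scramble and 6.05, 6.02 and 5.66 with the mimic. These arrays overlapped, and the difference was -0.05 ± 0.16 with an interval from -0.42 to 0.31. Its sign turned without scramble array 2 (0.04) or mimic array 3 (0.08). The last probe, ILMN_2296011, also on NM_018963, was below detection on all 6 arrays, with intensities from 123 to 134, and gives no difference. All 3 transcripts are in the current RefSeq gene table under BRWD1.

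**Figure D1:**
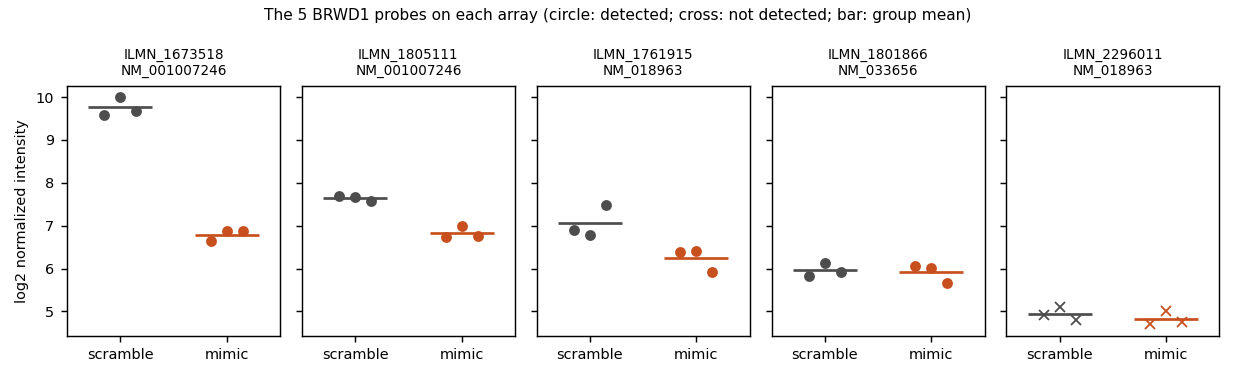
Log2 normalized intensity (vertical axis) of the 5 BRWD1 probes on each scramble and mimic array. Circles are detected, crosses are below detection and bars are group means. The difference runs from -2.97 for ILMN_1673518 to -0.05 for ILMN_1801866, and ILMN_2296011 is not detected on any array.

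The 4 measured BRWD1 probes thus spanned 2.92 log2 units in their differences, and the 2 probes on the same transcript were among those that disagreed. The span is set by ILMN_1673518, the probe whose value led to the choice of BRWD1, so it is a description and is not ranked against other genes. For scale, the median span was 0.21 over the 2684 genes with at least 2 measured probes and 0.83 over the 79 genes with at least 4. On the scramble arrays the brightest probe read 848 to 1024 in intensity and the other measured probes 153 to 297, against a lowest detected intensity of 135 to 157, and the part of this in the spread between probes was not tested. The probe sequences were not used here, so the part of the gene that each probe reads is not given.

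**Figure D2:**
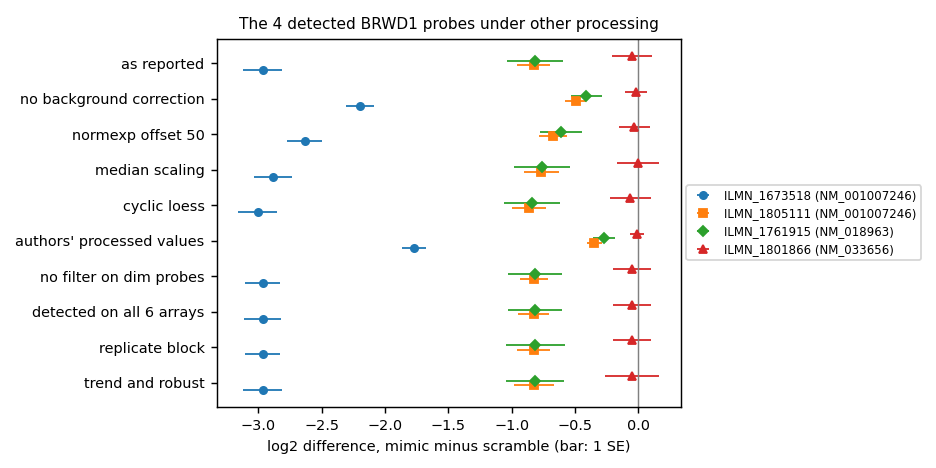
Log2 difference, mimic minus scramble (horizontal axis, bars 1 SE), of the 4 measured BRWD1 probes under each way of processing the 6 arrays. ILMN_1673518 lies between -3.01 and -1.77 and ILMN_1801866 between -0.06 and 0.00.

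The start of BRWD1 in RefSeq is shown because this gene had the largest difference, with those of BRD3, which fell, and BRWD3, which rose, for comparison. Each sequence covers 250 bases before to 50 after the annotated start (GRCh38.p14) and is written 5′ to 3′ on the gene's strand, with capitals for GGGCGG on either strand. The regions are chr21:39313583-39313882 for BRWD1, chr9:134067977-134068276 for BRD3 and chrX:80809828-80810127 for BRWD3, all on the minus strand.
BRWD1: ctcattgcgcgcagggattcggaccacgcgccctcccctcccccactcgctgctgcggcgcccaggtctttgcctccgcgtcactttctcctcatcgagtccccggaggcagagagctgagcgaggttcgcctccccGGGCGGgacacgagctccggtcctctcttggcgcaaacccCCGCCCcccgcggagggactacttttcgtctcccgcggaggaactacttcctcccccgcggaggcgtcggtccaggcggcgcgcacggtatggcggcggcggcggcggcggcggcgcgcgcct
BRD3: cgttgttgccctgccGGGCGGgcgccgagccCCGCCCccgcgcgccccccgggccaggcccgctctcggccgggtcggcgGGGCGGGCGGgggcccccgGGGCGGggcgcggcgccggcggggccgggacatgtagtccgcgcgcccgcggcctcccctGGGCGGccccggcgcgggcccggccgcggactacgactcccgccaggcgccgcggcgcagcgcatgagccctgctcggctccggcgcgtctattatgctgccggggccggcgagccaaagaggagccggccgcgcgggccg
BRWD3: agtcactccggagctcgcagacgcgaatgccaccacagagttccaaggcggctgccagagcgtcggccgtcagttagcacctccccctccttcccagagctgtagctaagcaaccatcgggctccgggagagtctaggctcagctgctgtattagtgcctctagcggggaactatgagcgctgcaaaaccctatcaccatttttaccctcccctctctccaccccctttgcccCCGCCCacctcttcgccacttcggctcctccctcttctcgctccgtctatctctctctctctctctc

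The BRWD1 window held 43 CpG dinucleotides and 2 matches to GGGCGG. The BRD3 window held 56 CpG and 6 matches, some of them overlapping, and the BRWD3 window held 17 CpG and 1 match. The median over 35116 RefSeq windows of the same length was 14 CpG, and 45.0% of them held GGGCGG on either strand. CCAAT (held by 34.6% of windows), TATAAA (11.5%) and CACGTG (7.3%), searched on both strands, had no match in any of the 3 windows. The arrays do not measure these regions, and nothing is drawn from the matches.

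BRWD3 and PHIP are the closest relatives of BRWD1, and all 3 proteins can act as substrate receptors of the CUL4-DDB1 ubiquitin ligase. BRWD3, an X-linked gene known from intellectual disability, moved in the direction opposite to BRWD1. Its only probe read 5.23, 5.30 and 5.63 with the scramble and 6.70, 7.09 and 6.56 with the mimic, and the groups did not overlap. BRWD3 rose 2.64-fold (log2 difference 1.40 ± 0.18, limma adjusted p = 0.00118). It was detected on 2 of 3 scramble arrays and 3 of 3 mimic arrays, so the scramble mean rests partly on background and the fold is uncertain. The log2 difference was 0.57 without background correction and 0.35 in the authors' processed values (adjusted p = 0.00715).

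PHIP encodes a protein that binds the insulin receptor substrate and has also been tied to replication origins. Its brighter probe, ILMN_1788689, read 9.60, 9.69 and 9.62 with the scramble and 9.59, 9.84 and 9.76 with the mimic. The groups overlapped, and the difference of 0.10 ± 0.12 was not called (limma adjusted p = 0.591, interval from -0.19 to 0.38). The second PHIP probe, ILMN_1898682, read 9.09, 9.03 and 9.23 against 9.09, 9.21 and 9.08, a difference of 0.01 ± 0.12 (interval from -0.28 to 0.29). Both PHIP intervals exclude a change as large as that of BRWD3 under the same processing.

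BRD2 and BRD3 belong to the BET family, which binds acetylated histones through tandem bromodomains and helps RNA polymerase II to elongate. BRD3 read 8.90, 9.78 and 9.41 with the scramble and 7.76, 7.76 and 7.63 with the mimic. Its scramble arrays varied more than its mimic arrays (SD 0.44 against 0.08), yet the groups stayed apart. BRD3 fell 3.13-fold (log2 difference -1.65 ± 0.21, limma adjusted p = 0.00116). Without any 1 array the difference ran from -1.88 to -1.44 and the call held, with adjusted p-values from 0.000919 to 0.00746. In the authors' processed values it was -1.07.

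BRD2 read 10.88, 10.98 and 10.94 with the scramble and 10.71, 10.76 and 10.80 with the mimic. These arrays did not overlap, but the difference of -0.18 ± 0.12 was not called (limma adjusted p = 0.267), and its interval from -0.44 to 0.09 excludes the size seen for BRD3. The deposited intensities of BRD2 did overlap, with 1931 to 1975 in the scramble group and 1824 to 2064 in the mimic group. None of the 3 probes of BRDT, a BET gene known from the testis, was measured.

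BRD7 and BRD9 encode subunits of different forms of the SWI/SNF chromatin remodeller, PBAF for BRD7 and the non-canonical BAF complex for BRD9. BRD9 read 10.27, 9.92 and 9.88 on its measured probe with the scramble and 10.75, 10.58 and 10.61 with the mimic, with no overlap. It rose 1.54-fold (log2 difference 0.62 ± 0.15, limma adjusted p = 0.0140). The call was lost without scramble array 3 (adjusted p = 0.0526) or mimic array 1 (0.0539). The second BRD9 probe was below detection on all 6 arrays.

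BRD7 was measured by a pair of probes on the same transcript. ILMN_2082810 read 9.21, 9.24 and 9.28 with the scramble and 9.42, 9.29 and 9.36 with the mimic, and ILMN_1696420 read 9.04, 9.08 and 9.25 against 9.28, 9.30 and 9.41. In each the mimic arrays lay just above the scramble arrays. The differences were 0.11 ± 0.12 and 0.21 ± 0.12, and neither was called (limma adjusted p = 0.486 and 0.232, upper interval bounds 0.38 and 0.49). BRD8, a subunit of the NuA4/TIP60 acetyltransferase complex, had 1 probe, below detection on all 6 arrays with intensities from 102 to 131.

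**Figure D3:**
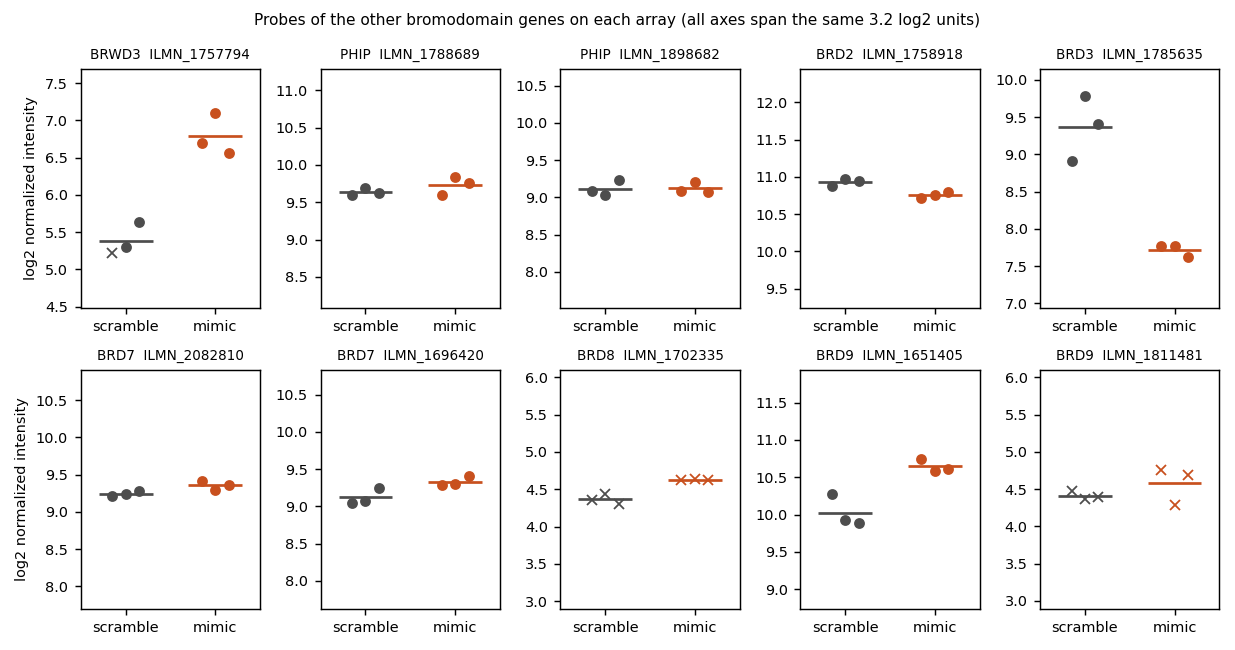
Log2 normalized intensity (vertical axes, all of the same span) of the probes of BRWD3, PHIP, BRD2, BRD3, BRD7, BRD8 and BRD9 on each scramble and mimic array. Circles are detected, crosses are below detection and bars are group means. BRD3 is lower and BRWD3 and BRD9 are higher with the mimic, and the PHIP groups overlap.

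**Figure D4:**
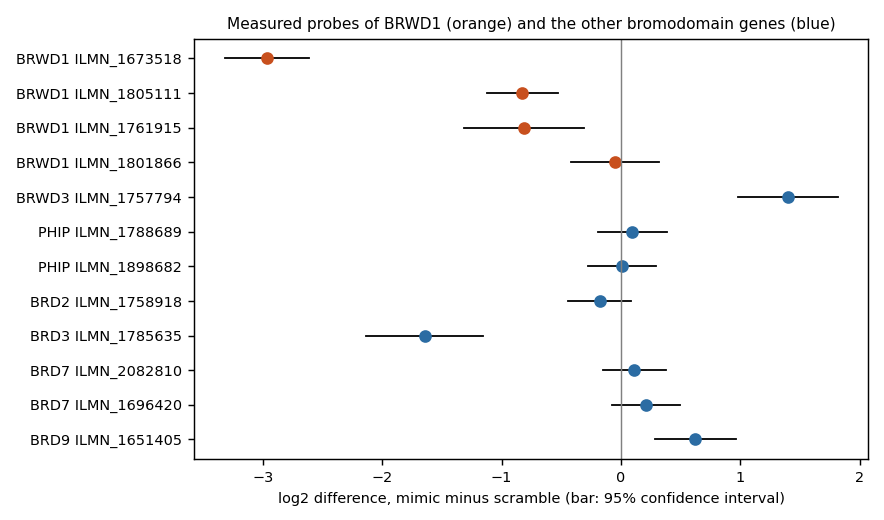
Log2 difference, mimic minus scramble, of the 12 measured probes (horizontal axis, bars 95% confidence intervals), with BRWD1 in orange and the other genes in blue. BRWD1 probes run from -2.97 to -0.05, BRD3 lies at -1.65 and BRWD3 at 1.40.

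Among the genes beside BRWD1 on chromosome 21, none of those measured was called lower. The 3 nearest protein-coding genes on each side in the RefSeq order are ERG, ETS2 and PSMG1, then HMGN1, GET1 and the GET1-SH3BGR readthrough. Of these, 3 were measured, of which 2 rose and 0 fell, against 18.4% of all measured genes called higher and 17.3% called lower. PSMG1, a proteasome assembly chaperone, rose on both of its probes, by 0.90 ± 0.18 on the brighter (limma adjusted p = 0.00741) and by 1.59 ± 0.19 on the other. HMGN1, a nucleosome-binding protein, rose by 0.73 ± 0.14 (adjusted p = 0.00654) and by 0.64 ± 0.12. GET1, a receptor for tail-anchored proteins, was not called on either probe (0.01 ± 0.13 and 0.20 ± 0.12). The probes of the ETS factor genes ERG and ETS2 were below detection on all 6 arrays. GET1-SH3BGR had no probe in the annotation used here.

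Other genes that encode bromodomains were mostly not called. Of 33 listed, 28 had a probe and 23 were measured, of which 2 rose, 2 fell and 19 were not called. That is 17.4% called, against 35.7% of the 10503 measured genes, and the median log2 difference was -0.01 against 0.03 over all genes. SMARCA4, the BRG1 ATPase of SWI/SNF, fell by 1.65 on the log2 scale (SE 0.12, limma adjusted p = 0.000183). ZMYND11, a reader of methylated histone H3.3, changed by -0.69 ± 0.15, and its 3 measured probes ran from -0.69 to -0.56, with 2 called. BAZ1A, a subunit of ISWI remodellers, changed by 0.47 ± 0.15 on its brighter probe, while the other gave 0.00. TRIM24, a coregulator of nuclear receptors, changed by 0.42 ± 0.12 (0.25 in the authors' processed values), and its other measured probe gave 0.43, not called. ZMYND8 is counted as not called by its brighter probe (-0.67 ± 0.28), but its other measured probe was called lower at -0.70.

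The SMARCA4 and ZMYND11 calls held without any 1 array. The call of BAZ1A was lost without any 1 array but scramble array 1 (adjusted p from 0.0504 to 0.122), and on all 6 arrays without a filter on dim probes (0.0692). The call of TRIM24 was likewise lost without any 1 array but scramble array 1 (0.0598 to 0.0820). The count of called genes was 2 without scramble array 2, scramble array 3 or mimic array 3, and 7 without background correction or in the authors' processed values. Over all measured probes, 5798 were called as reported. That number was 4309 without scramble array 2, 4217 without scramble array 3 and 3929 without mimic array 3. It was 6124 without background correction and 5724 in the authors' processed values.

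The proteins work in complexes, and 65 of 66 genes listed for those complexes, termed partners here, had a probe. Not each of them is a direct partner of a member. Among the 59 that were measured, 12 rose and 14 fell, leaving 33 not called, which is 44.1% called against 35.7% of all measured genes. The count of called partners was 17 without scramble array 2, 16 without scramble array 3 or mimic array 1, and 14 without mimic array 3. Calls over all measured probes fell in the same fits as well. They numbered 4309 without scramble array 2, 4217 without scramble array 3, 4092 without mimic array 1 and 3929 without mimic array 3, against 5798. The lower counts are therefore not particular to the partners.

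Of the genes listed for the CUL4-DDB1 ligase, which the BRWD family can join, 8 were measured. Of these, 1 rose, 1 fell and 6 were not called, which is 25% called against 35.7% of all measured genes. COP1, a ligase subunit, changed by 0.42 ± 0.12, and RBX1, the RING subunit, by -0.38 ± 0.11. CUL4A (-0.25 ± 0.14), CUL4B (-0.04 on its brighter probe, while the other was called at 0.68) and DDB1 (0.19) were among those not called. The COP1 call was lost without any 1 array but scramble array 2 (adjusted p from 0.0529 to 0.0867), and the RBX1 call without any 1 of the 6 (0.0612 to 0.0965).

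Of 14 measured genes in the list of BET cofactors and elongation, 2 rose, 4 fell and 8 were not called. The list and its counts include MYC, a transcription factor gene and not a cofactor, which rose (0.49 ± 0.12). CDK9, the elongation kinase, fell (-0.51 ± 0.13). Neither gene was followed in the fits without 1 array. Called genes made up 42.9%, against 35.7% of all measured genes. AFF4, the scaffold of the super elongation complex, changed by -1.17 ± 0.18 (limma adjusted p = 0.00263), HEXIM2, an inhibitor of the elongation kinase, by -0.60 ± 0.15, and ELL2, an elongation factor, by -0.54 ± 0.16. NSD3, a histone methyltransferase that binds BET proteins, changed by 0.77 ± 0.19, and its 3 measured probes ran from -0.16 to 0.84. Sizes were smaller in the authors' processed values for HEXIM2 (-0.25), ELL2 (-0.28) and NSD3 (0.22). The HEXIM2 call was lost without scramble array 3 (adjusted p = 0.0661) or mimic array 1 (0.0643). The ELL2 call was lost in 4 of the 6 fits on 5 arrays, all but those without scramble array 1 or mimic array 2 (0.0805 to 0.102), with median scaling (0.0558) and without a filter on dim probes (0.0655).

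Of 18 measured PBAF and BAF subunit genes, partners of BRD7 and BRD9, 5 rose, 3 fell and 10 were not called. Called genes made up 44.4%, against 35.7% of all measured genes. SMARCC2, a core scaffold, changed by -1.28 ± 0.14 (limma adjusted p = 0.000645), and its other measured probe gave -1.18. PHF10, a subunit of PBAF, changed by 1.27 ± 0.16 (0.50 in the authors' processed values), SMARCD1 by 0.80 ± 0.12 and SMARCB1, a core subunit lost in rhabdoid tumours, by 0.74 ± 0.15. These calls held without any 1 array. BCL7C, counted among those that fell by its brighter probe (-0.48 ± 0.11), was called higher at 1.15 on its other measured probe. SS18, counted as not called, had 4 measured probes that ran from -0.16 to 0.78, with 1 called higher.

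Of 13 measured NuA4/TIP60 genes, partners of BRD8, 2 rose, 4 fell and 7 were not called. Called genes made up 46.2%, against 35.7% of all measured genes. VPS72, which handles the histone variant H2A.Z, changed by -1.07 ± 0.12 (limma adjusted p = 0.000693), DMAP1 by -0.77 ± 0.13 (-0.50 in the authors' processed values), MEAF6 by -0.67 ± 0.13 (-0.18 there) and the YEATS-domain reader YEATS4 by 0.62 ± 0.13. MEAF6 is also a subunit of the complexes that BRD1 joins. Of 6 measured genes listed for the MOZ, MORF and HBO1 acetyltransferase complexes, which BRD1 can join, 2 rose, 2 fell and 2 were not called. The JADE genes in this list encode scaffolds in their own right and are not counted as partners of BRD1 itself. That is 66.7% called in a list of few genes, against 35.7% of all measured genes. The scaffold genes JADE2 (-1.21 ± 0.16, or -0.46 in the authors' processed values) and JADE3 (1.01 ± 0.12) moved in opposite directions. The acetyltransferase KAT6A changed by -0.51 ± 0.13 and KAT7 by 0.55 ± 0.17 (0.20 in the authors' processed values). The KAT6A call held without scramble array 1 or mimic array 2 and was lost without any other array (adjusted p from 0.0515 to 0.0755). The KAT7 call was lost without any 1 array but mimic array 2 (0.0685 to 0.122) and under 4 other settings (0.0536 to 0.0903).

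**Figure D5:**
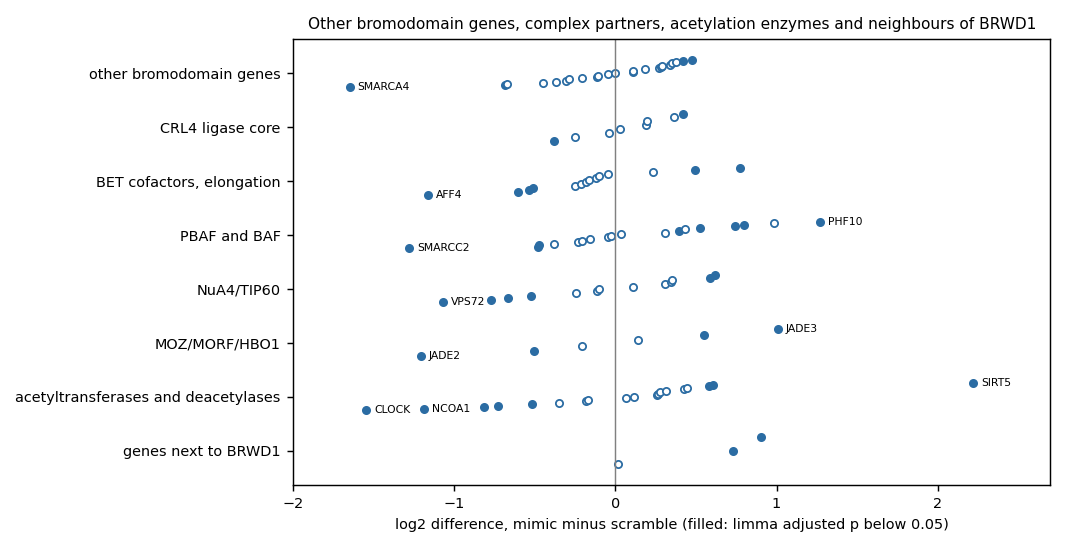
Log2 difference, mimic minus scramble (horizontal axis), of each measured gene of the other lists, with filled points for limma adjusted p below 0.05 and names for called genes past 1 log2 unit. SMARCA4 at -1.65 stands lowest among the other bromodomain genes, and the partner lists hold calls on both sides of 0.

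The genes whose pattern over the 6 arrays was most like that of the brightest BRWD1 probe were sought among all 10503 measured genes. The measure was the root mean square difference of log2 values after each gene's mean was removed. The closest were FOXJ1, a factor that drives the making of motile cilia, at 0.16, PTPN11, which encodes the phosphatase SHP2, at 0.16, B3GALNT1, a glycosyltransferase gene, at 0.16, GPC6, a glypican gene, at 0.17, and LRRC31 at 0.19. FOXJ1 and LRRC31 were detected on 0 of 3 mimic arrays, so their mimic values are background. The search finds genes with a similar difference between groups and is a description. For PHIP the closest genes were ADAP1, CLK1, OTOGL, POP7 and QNG1, at 0.03 each, with log2 differences from 0.04 to 0.12.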

How the data were processed

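RNA of 6 samples was measured on Illumina BeadChips, 3 arrays per group. Per the file headers, the authors deposited for each probe a summary intensity, linear and not normalized, and a detection p-value. A second deposited table holds the authors' own processed intensity, with a column median of 200.783 in all 6 arrays, and log2 was taken of it here. Per the submitters' processing notes lumi (3.2.2) was used. No source used here gives its settings, or the transform and scaling behind that table. Each processed column correlated best with the array of its own sample (r from 0.891 to 0.899, against at most 0.713 for another array, on log2 values with each probe's mean removed).

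Background was removed by normexp from the detection p-values (nec, offset 16), arrays were quantile-normalized and log2 was taken. Probes with a detection p below 0.01 on at least 3 of 6 arrays were kept (17104, 36.1%). lmFit and eBayes (limma 3.58.1, R 4.3.3) were run on all of them, two-sided, with Benjamini-Hochberg adjustment, and tested on simulated data. A gene in a list is its kept probe with the highest mean. Symbols came from the platform annotation of 2016, updated by Entrez identifier from RefSeq (GRCh38.p14), which matched 30074 of 30113 probes with 1 symbol. The number of arrays limits the precision.

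The members and lists were chosen with earlier results of these data known. All member probes are named. From each list the called genes with the largest fold are named, at most 6 for other bromodomain genes and 4 for every other list. Others are named as not called, or where their probes disagreed. MYC and CDK9 are named in addition, as the remaining called genes of their list. The groups share replicate numbers but the labels state no pairing, so the numbers were not taken to pair samples. Same-numbered arrays of the groups had residual correlations of 0.36, 0.45 and -0.11. Values for differently numbered arrays are not given, so these do not decide whether samples were paired. Alternatives were other background corrections, normalizations, filters and variance models, the authors' values, a replicate block, averaging the probes of a gene, and fits without each array in turn.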

Additional observations from a re-analysis of the deposited data

How the results depend on the processing

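The direction of the brightest BRWD1 probe was the same under all alternatives, but its size was not. The log2 difference was -2.19 without background correction and -2.63 with an offset of 50. It was -1.77 in the authors' processed values, which differ in more than the background correction. Over the analyses that left out 1 array it ran from -3.05 to -2.84. The number of called probes of the 9 genes was 5 or 6 in the analyses of all 6 arrays and 4 to 6 when 1 array was left out. These counts include probes of BRWD1, which was chosen on this contrast, so nothing is read from them. The count of other bromodomain genes called was 7 without background correction and 7 in the authors' processed values, and 2 to 4 when 1 array was left out. Complex partner genes called ran from 14 to 23 and acetylation enzymes from 4 to 8 when 1 array was left out, while all probes called numbered 3929 to 5569 in place of 5798, with fewer samples in each fit. The sign of the dimmer PHIP probe, not called, turned to -0.029 with cyclic loess, and it ran from -0.036 to 0.065 when 1 array was left out. That of GET1, not called, ran from -0.073 to 0.071 in those analyses. With the replicate number as a block, the number of called probes was 6680 and other bromodomain genes called 6. No call was lost there among the members other than BRWD1, the genes next to it and the genes named for the largest folds. With median scaling the median log2 difference of all measured probes was 0.07 in place of 0.02 and 58.3% of the called probes were higher with the mimic, against 51.8% with quantile normalization. The cause of these shifts was not tested. Signal near background limits how well the size of the dim BRWD1 and BRWD3 probes is known. No result met the criteria for a closer look, since outliers are not sought in groups of 3.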

Other observations

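Genes of the acetyltransferase and deacetylase families, which include enzymes that write and erase lysine acetylation, the mark bromodomains bind, were also measured. Not each listed enzyme acts on that mark in chromatin. Acetyltransferases that belong to the lists above are counted there and not here. Among them, CREBBP (log2 difference 0.27), EP300 (-0.21), KAT2A (0.28), KAT2B (0.38) and KAT5 (-0.12) were not called. KAT6A and KAT7 were called, as given above. Of 28 listed acetyltransferases and deacetylases, 19 were measured, of which 3 rose, 5 fell and 11 were not called, a share of 42.1% against 35.7% of all measured genes. The count of called genes was 4 without mimic array 3, where calls over all measured probes also fell, from 5798 to 3929. SIRT5, a mitochondrial sirtuin, changed by 2.22 ± 0.19 on its brightest probe (limma adjusted p = 0.000292), or 1.22 in the authors' processed values, but its 3 measured probes ran from -0.78 to 2.22, with 2 called higher and 1 called lower. CLOCK, a circadian transcription factor, changed by -1.55 ± 0.13 (-0.83 in the authors' processed values) and its other probe gave -0.45, not called. NCOA1, a coactivator of steroid receptors, changed by -1.19 ± 0.14 (-0.68 in the authors' processed values) and its other probe gave -0.04. HDAC11, a member of the deacetylase family, changed by -0.82 ± 0.25 (-0.31 in the authors' processed values and -0.52 without mimic array 1). Its call held without mimic array 2 and was lost without any other array (adjusted p from 0.0512 to 0.112), and lost also when dim probes were kept (0.0949).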
